A study of Rattus norvegicus with 11 samples.

Results

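The genes for glutamate receptors and their closest partners were followed in the spinal cord of rats after contusion. The group was chosen by gene name among the protein-coding genes. It comprises the AMPA, kainate, NMDA, delta and metabotropic receptor genes (Gria, Grik, Grin, Grid and Grm). The class of AMPA receptor auxiliary subunits holds Cacng2 to Cacng8 (Cacng6 by its name alone), Cnih2 and Cnih3. The vesicular glutamate transporters Slc17a6, Slc17a7 and Slc17a8 and the postsynaptic scaffold genes Dlg4, Homer1 and Shank1 complete the group. These are 41 genes of the 30443 in the tables, and expression values did not enter the choice. A total of 34 of them were tested, against 14867 genes tested in all, since testing required an FPKM over 1 in at least 1 library. FPKM is a level corrected for gene length and library size, and CPM (counts per 1000000 of the scaled library) is corrected for library size alone.

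All groups were female Sprague-Dawley rats, with an age of 12 to 14 weeks in the labels. Rats with spinal cord injury (SCI) had received a moderate contusion at the ninth thoracic vertebra, and the tissue at the epicenter was collected 1, 3 or 6 months later (1 M, 3 M and 6 M). In control rats the vertebral arch was opened without contusion (sham laminectomy), and the matching tissue was taken after 6 months. Each library was made from pooled tissue of 3 rats, with 3 libraries at 1 M, 3 at 3 M, 2 at 6 M and 3 of control. No processing batch held both SCI and control libraries, and 1 M and 3 M rats were also collected sooner than control rats, so injury cannot be told apart from batch at any time, nor from age at 1 M and 3 M.

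Glutamate is the main fast excitatory transmitter of the spinal cord. It is loaded into vesicles by the vesicular glutamate transporters, released, and sensed across the cleft by ion channels built of several subunits and by G protein-coupled metabotropic receptors. AMPA receptors carry most of the fast current, NMDA receptors pass calcium when the membrane is already depolarized, kainate receptors act on both sides of the synapse, and scaffold proteins such as PSD-95 (Dlg4) hold them in place. Auxiliary subunits decide how many AMPA receptors reach the surface and how fast they close. Most of these genes are known from neurons, while some, among them Gria1, Gria2, Gria4, Grm3, Grm5, Cacng4 and Grin2c, are also known from astrocytes or oligodendrocyte precursors.

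At every time after SCI, most of the tested genes were lower than in control and hardly any were higher. The lowest fold changes at 3 M were those of Slc17a7 (the vesicular transporter VGLUT1), Cacng2 (stargazin, the prototype AMPA auxiliary subunit), Grm4, Slc17a6 (VGLUT2) and Grin1 (the subunit every NMDA receptor needs). Homer1 was higher at all 3 times and Grm5 at 1 M. Both met the FPKM limit for testing only through SCI libraries, and Slc17a7 only through control, so the filter favored the direction they show. Gria1, Cacng4, Cnih3, Grin2c and Grin3a were among those that passed the test at no time. Grin3a, too, met the FPKM limit only through SCI libraries. In numbers, 20 of the 34 tested members were lower and 2 higher at 1 M, 26 were lower and 1 higher at 3 M, and 25 were lower and 1 higher at 6 M (edgeR, Benjamini-Hochberg adjusted p under 0.05). The counts at 1 M were the least stable. There, limma called 12 lower and 5 higher on log2(FPKM + 1) and 10 lower and 5 higher on log2(FPKM + 0.1). Over all 14867 genes, these 2 fits called 2458 and 2407 lower and 6476 and 6505 higher. They also raised the median gene by 0.28 and 0.36. With 1 batch per group (control replicate 3 and 1 M replicate 3 left out) 13 were lower and 1 higher, against 3424 and 2621 of all genes. An adjusted p under 0.01 with a fold over 2 gave 7 and 1, against 1043 and 1560 of all genes. Apart from these stricter thresholds, 9 of the 22 calls held at an adjusted p under 0.05 in every other fit.

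Of all 14867 genes tested, 31.5% were lower and 25.5% higher at 1 M, 31.4% lower and 29.7% higher at 3 M, and 27.2% lower and 26.8% higher at 6 M. The median log2 fold change of the 34 members was -0.75 at 1 M, -1.22 at 3 M and -1.37 at 6 M, while the median of all genes was -0.05 at 1 M, 0 at 3 M and 0.0041 for 6 M. The total counts ranged from 21430564 to 49986531 in the SCI libraries, against 10057646 to 19241259 in control, so control values carry more counting error. A set of 20 members was lower at all 3 times. A further 5 (Gria2, Cacng5, Grid1, Grm7 and Shank1) were called lower at 3 M and 6 M, and Grik2 at 3 M. The libraries of 21 tested members lay wholly below control at 1 M, of 27 at 3 M and of 26 at 6 M, where 34.0%, 34.7% and 34.0% of all genes did. Those of 2, 1 and 1 lay wholly above, where 27.0%, 34.6% and 35.2% of all genes did. The scale matters for the split over all genes. With TMM (trimmed mean of M-values) scaling replaced by total counts, the median gene shifted up by 0.22 and the lower share of all calls became 36.9% at 1 M, 35.8% at 3 M and 34.5% at 6 M, where TMM scaling gave 55.2%, 51.3% and 50.4%, while 15, 24 and 23 members were still called lower.

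**Figure D1:**
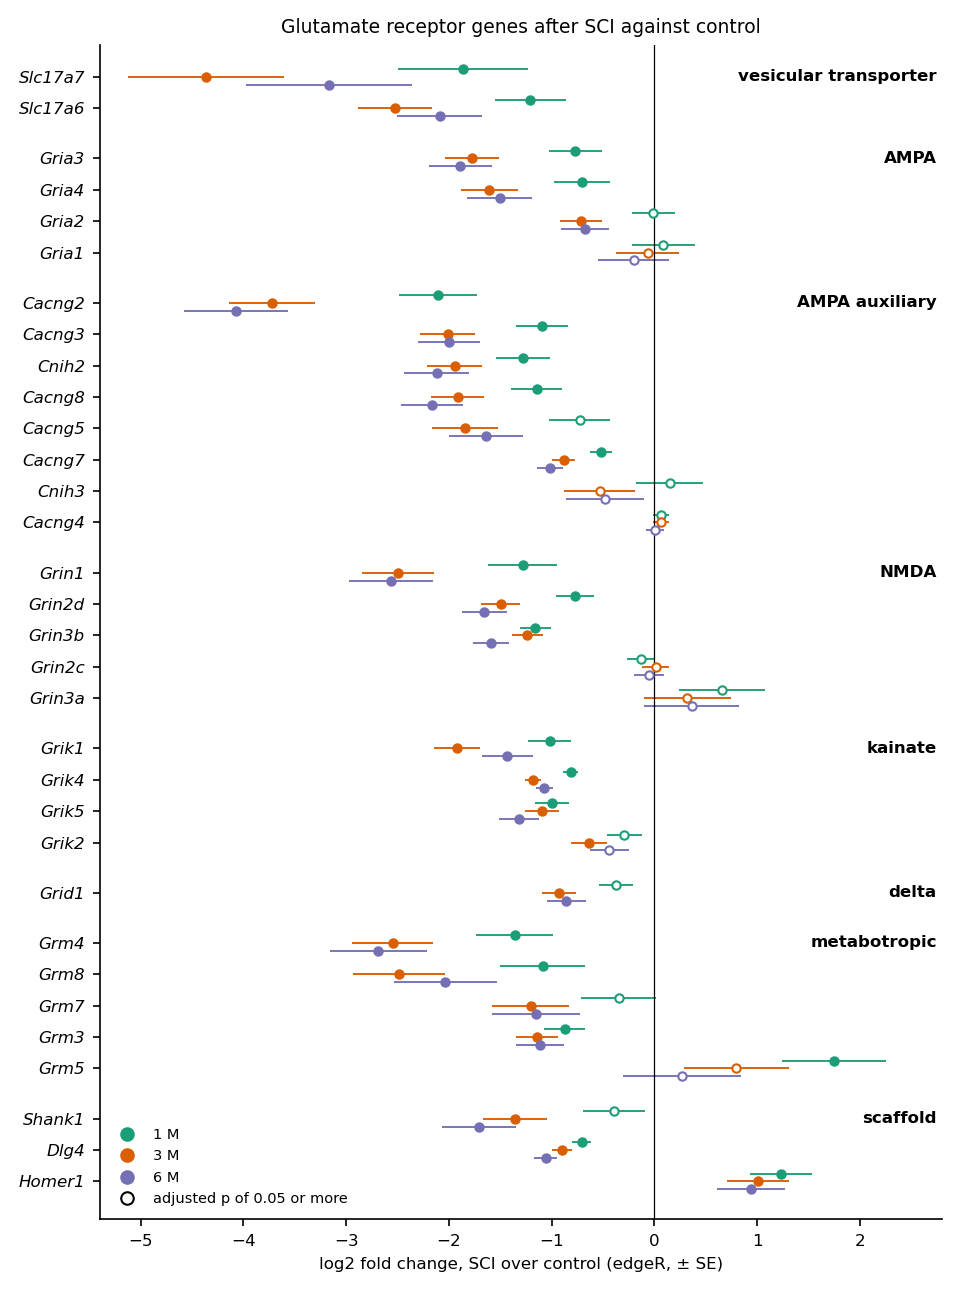
Log2 fold change of 32 of the 34 tested genes over control at the 3 times after SCI (x axis, edgeR), with bars of 1 standard error, grouped by class and ordered within a class by the value at 3 M. Filled circles passed an adjusted p of 0.05 and open circles did not, and Homer1 and Grm5 are the only filled circles to the right of 0.

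Bulk tissue was measured, so fewer neurons and less RNA per neuron cannot be told apart. The summed FPKM of 14 neuron markers ranged from 1134 to 1387 at 1 M, from 553 to 662 at 3 M and from 274 to 811 at 6 M, against 1977 to 2959 in control, and of the 13 markers tested 10, 12 and 12 were lower and 1, 0 and 0 higher. None of the markers of any cell type in the lists was at the lowest FPKM value in every library. The summed FPKM of 10 astrocyte markers was 4824 to 5526 at 1 M, 6769 to 7026 at 3 M and 6916 to 7451 at 6 M, against 3199 to 3289 in control, although 3 of the 10 were lower and 3 higher at 1 M, 2 lower and 2 higher at 3 M, and 0 lower and 3 higher at 6 M. That of 8 oligodendrocyte precursor markers was 221 to 241, 200.2 to 211 and 178 to 208, against 313 to 326 in control, with 3 lower and 4 higher, 4 and 3, and 4 and 2 at the same times. Of 10 oligodendrocyte markers 8, 9 and 9 were lower and 0 higher, with sums of 12860 to 13570, 10730 to 11800 and 12080 to 12330, against 6897 to 24930 in control. Microglia and macrophage markers were higher in 9 of 10 at each time (1084 to 1603, 941 to 979 and 792 to 979, against 250.3 to 328 in control). Schwann cell markers were higher in 3, 4 and 6 of 7 and lower in 1 (890.4 to 1553, 1446 to 1797 and 1943 to 2467, against 793 to 1253 in control), and ependymal markers higher in 1, 4 and 4 of 4 (7.56 to 10.8, 19.4 to 19.9 and 22.2 to 33.6, against 6.30 to 7.86 in control). The part of these shifts in the changes of the receptor genes was not tested. The 2 libraries at 6 M differed widely. The neuron markers summed to 811 in replicate 1 and 274 in replicate 2, and 40 of the 41 members had a lower CPM in replicate 2.

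Slc17a6 encodes VGLUT2, the vesicular transporter of most excitatory neurons of the cord itself. It had 48.6, 37.6 and 44.5 CPM at 1 M, 18.7, 18.1 and 15.7 CPM at 3 M and 37.3 and 10.2 CPM at 6 M, against 99.97, 116 and 86.5 CPM in control. Every SCI library was below every control library. The log2 fold change was -1.21 ± 0.34 at 1 M (adjusted p = 0.0123), -2.52 ± 0.36 at 3 M (0.000189) and -2.09 ± 0.41 at 6 M (0.00184) (edgeR). The call at 1 M was lost in limma on log2(FPKM + 1) (-0.53, adjusted p = 0.129) and log2(FPKM + 0.1) (-0.58, 0.180) and with 1 batch per group (-1.32, 0.0508).

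Slc17a7 encodes VGLUT1, which in the cord is found mainly in the endings of sensory and corticospinal axons. Its level was 2.31, 2.77 and 3.44 CPM at 1 M, 0.593, 0.774 and 0.0839 CPM at 3 M and 2.08 and 0.298 CPM at 6 M, against 6.72, 18.8 and 5.81 CPM in control. All SCI libraries lay below the controls, of which replicate 2 stood far above the rest, and 3 M replicate 3 had 2 counts. Its FPKM was over 1 in control alone (1.64, 3.91 and 1.37), so it was tested only because it was high there. The fold change at 3 M was the strongest fall of any member, with log2 values of -1.86 ± 0.63 at 1 M (adjusted p = 0.0275), -4.36 ± 0.76 at 3 M (0.000641) and -3.17 ± 0.81 at 6 M (0.00764) in edgeR. Without control replicate 2 the value at 1 M was -1.14 (adjusted p = 0.146), without 1 M replicate 1 -1.72 (0.0684) and without 1 M replicate 2 -1.85 (0.0752). Without 6 M replicate 2 the value at 6 M was -2.31. The calls at 1 M and 6 M were thus lost when single libraries were left out. The value at 1 M itself changed little without 1 M replicate 1 or 2. With total counts (-1.61, 0.0527) or no filter (-1.73, 0.0596) the call at 1 M was lost too. The third vesicular transporter, Slc17a8, had 1 to 10 counts per library and was not tested.

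Among the AMPA subunits, which form the pore, Gria3 and Gria4 were lower at each time, Gria2 was lower at 3 M and 6 M, and Gria1 passed the test at no time. Gria4, the AMPA subunit with the highest FPKM in control, had 42.00, 40.5 and 48.4 CPM at 1 M, 25.2, 24.3 and 20.6 CPM at 3 M and 36.4 and 13.9 CPM at 6 M, against 83.4, 65.7 and 64.6 CPM in control. No SCI library reached the control range. The log2 fold change was -0.71 ± 0.27 at 1 M (adjusted p = 0.0446), -1.60 ± 0.28 at 3 M (0.000617) and -1.50 ± 0.32 at 6 M (0.00275) in edgeR, and the call at 1 M, close to the threshold, was lost when any 1 of the libraries of control, 1 M or 3 M was left out (log2 fold change -0.79 to -0.57). It was lost too with DESeq2 size factors, total counts, upper quartile, no filter, filterByExpr and 1 batch per group (-0.85 to -0.49), and in limma on FPKM, where the value was -0.12 and -0.13.

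The fall at 3 M was largest for Gria3 among the 4 subunits. Gria3 had 45.5, 39.1 and 46.8 CPM at 1 M, 22.9, 23.7 and 18.8 CPM at 3 M and 29.1 and 11.6 CPM at 6 M, against 79.2, 80.1 and 65.3 CPM in control. Its SCI libraries were all below control. The log2 fold change was -0.77 ± 0.26 at 1 M (adjusted p = 0.0259), -1.78 ± 0.27 at 3 M (0.000253) and -1.89 ± 0.31 at 6 M (0.000654) by edgeR, and at 1 M it fell short of the threshold without control replicate 1, control replicate 2 or 1 M replicate 2 (-0.85 to -0.70 over all libraries left out in turn). The call was lost too with total counts, upper quartile, no filter and 1 batch per group (-0.91 to -0.55), and in limma on FPKM, where the value was -0.15 and -0.16.

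Gria1, which contributes to calcium-permeable AMPA receptors where Gria2 is absent, passed the test at no time. Its level was 11.9, 13.6 and 18.00 CPM at 1 M, 16.6, 14.2 and 8.22 CPM at 3 M and 15.8 and 7.98 CPM at 6 M, against 15.96, 11.1 and 13.6 CPM in control, and the SCI and control libraries overlapped at each time. The edgeR log2 fold change was 0.09 ± 0.31 at 1 M (adjusted p = 0.827), -0.06 ± 0.31 at 3 M (0.870) and -0.20 ± 0.35 at 6 M (0.644).

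Gria2, singled out after its values were seen, encodes the subunit that makes AMPA receptors nearly impermeable to calcium. It had 73.9, 71.3 and 95.2 CPM at 1 M, 53.3, 47.8 and 46.4 CPM at 3 M and 66.3 and 34.6 CPM at 6 M, against 86.5, 70.99 and 83.99 CPM in control. At 1 M the libraries overlapped with control, and at 3 M and 6 M they lay below it. The edgeR log2 fold change was -0.009 ± 0.21 at 1 M (adjusted p = 0.979), -0.71 ± 0.21 at 3 M (0.0123) and -0.68 ± 0.24 at 6 M (0.0316). The 2 kinds of deposited values disagreed for this gene. Its FPKM averaged 8.59 ± 0.91 at 1 M, 5.70 ± 0.57 at 3 M and 4.64 ± 2.11 at 6 M, against 5.31 ± 1.62 in control (SD, n = 3, 3, 2 and 3), and limma on log2(FPKM + 1) gave a log2 fold change of 0.63 at 1 M and 0.12 at 3 M. At 6 M the call was also lost without control replicate 1 (-0.63, adjusted p = 0.0623), control replicate 3 (-0.65, 0.0699) or 6 M replicate 2 (-0.30, 0.228), and with total counts it was lost at 3 M (-0.49, 0.0848). Total counts, upper quartile, limma, no filter, a fit of the 2 groups alone and 1 batch per group also lost it at 6 M (-0.67 to -0.18). Its direction at 1 M and 3 M thus depended on which values were used.

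Within a library, the make-up of the AMPA subunits can be read from FPKM, which corrects for gene length. Gria2 held 29.1%, 29.6% and 31.1% of the summed FPKM of Gria1 to Gria4 at 1 M, 30.5%, 30.01% and 34.5% at 3 M, with 29.4% and 33.8% at 6 M, against 19.5%, 17.5% and 22.1% in control. Every SCI library was above every control library. The share of Gria4 averaged 34.4% at 1 M, 29.9% at 3 M and 30.5% at 6 M, against 41.1% in control, and that of Gria1 12.4%, 18.7% and 20.0%, against 10.6% in control. The log2 ratio of Gria2 to the sum of the other 3 subunits was -1.16 ± 0.14 in the SCI libraries and -2.03 ± 0.21 in the control libraries, a difference of 0.88 (two-sided exact permutation test over 8 and 3 libraries, p = 0.00606, the smallest that this test can give, and 0.00758 after adjustment over 5 ratios). All 5 ratios were chosen with earlier results of these data known, so their p-values are not independent evidence. From CPM in place of FPKM the difference was 0.74 (adjusted p = 0.0121 in the same exact test). The summed FPKM of the 4 subunits was 28.6 ± 2.0 at 1 M, 18.1 ± 2.8 at 3 M and 15.1 ± 8.2 at 6 M, against 26.8 ± 7.4 in control, so the sum itself at 1 M differed from control by less than the spread.

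**Figure D2:**
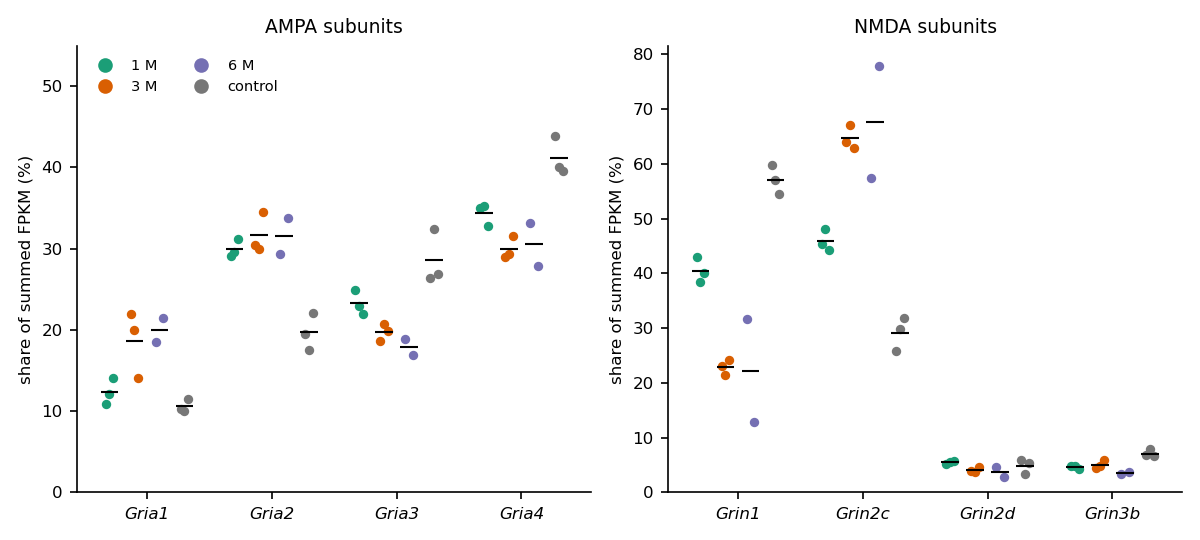
Share of each gene in the summed FPKM of the 4 AMPA subunits (left) and of the 7 NMDA subunits (right, the 4 with the highest shares), in percent, for each library at 1 M, 3 M, 6 M and in control; horizontal lines are group means. Gria2 and Grin2c hold a larger share in each SCI library than in any control library, and Grin1 and Gria4 a smaller one.

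The AMPA auxiliary subunits fall into the TARPs (transmembrane AMPA receptor regulatory proteins, members of the Cacng family) and the cornichons (Cnih). Cacng6 was placed in this class by its name and is not counted as a TARP. Of the 8 tested, 5 were lower at 1 M and 6 at 3 M and 6 M, and none was higher. Among all genes, 31.5%, 31.4% and 27.2% were lower and 25.5%, 29.7% and 26.8% higher. Cacng2, whose product stargazin brings AMPA receptors to the surface and anchors them to PSD-95, had 12.6, 12.99 and 15.5 CPM at 1 M, 5.08, 4.50 and 3.78 CPM at 3 M and 5.98 and 1.23 CPM at 6 M, against 50.9, 74.8 and 51.3 CPM in control. No other TARP had as low a fold change at any time, and every library at 3 M and 6 M was below every library at 1 M, which in turn was below control. The log2 fold change was -2.10 ± 0.38 at 1 M (adjusted p = 0.00112), -3.72 ± 0.41 at 3 M (4.43e-05) and -4.07 ± 0.50 at 6 M (0.000151) (edgeR), and it passed at each time under each other fit tried.

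Cacng7, a type II TARP and the auxiliary subunit with the highest FPKM in control, had 164, 148 and 135 CPM at 1 M, 111, 117 and 118 CPM at 3 M and 116 and 94.3 CPM at 6 M, against 236, 207 and 196 CPM in control. All SCI libraries were below control, by less than for Cacng2. The fold change in log2 was -0.52 ± 0.11 at 1 M (adjusted p = 0.00260), -0.88 ± 0.11 at 3 M (7.63e-05) and -1.02 ± 0.13 at 6 M (0.000143) in edgeR, and at 1 M the call was lost in limma on FPKM (-0.21 with either pseudocount). The type I TARPs Cacng3 and Cacng8 and the cornichon Cnih2, which slows channel closing, were lower at each time, with log2 fold changes of -2.01, -1.92 and -1.94 at 3 M. Cacng5, another type II TARP, reached -1.85 at 3 M and -1.64 at 6 M, and at 1 M did not pass (-0.73, adjusted p = 0.0575, edgeR). It met the FPKM limit for testing through control replicate 1 alone (1.28).

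Cacng4, a type I TARP that is also known from glia and the developing brain, passed the test at no time. It had 75.4, 68.4 and 75.2 CPM at 1 M, 73.3, 72.2 and 74.5 CPM at 3 M and 72.7 and 68.2 CPM at 6 M, against 68.4, 74.5 and 67.1 CPM in control. The libraries overlapped with control at all times, and all 11 lay between 67.1 and 75.4 CPM. Its log2 fold change was 0.06 ± 0.08 at 1 M (adjusted p = 0.522), 0.07 ± 0.08 at 3 M (0.471) and 0.01 ± 0.09 at 6 M (0.939) in edgeR. With total counts in place of TMM it was called higher at each time (0.28, 0.29 and 0.23), and with upper-quartile scaling at 1 M and 3 M (0.19 and 0.20), under scalings that also raised the median gene by 0.12 to 0.22. Its FPKM did not overlap, at 13.2 to 14.8 in the SCI libraries, against 10.2 to 11.3 in control, and limma on FPKM called it higher at each time (0.34 and 0.36 at 1 M, 0.40 and 0.43 at 3 M, 0.32 and 0.34 at 6 M), in fits that raised the median gene by 0.28 to 0.41. With the length trend removed the values were -0.08, -0.08 and -0.12. Of the summed FPKM of the 9 genes of this class, Cacng4 held 13.7% at 1 M, 18.6% at 3 M and 19.6% at 6 M, against 7.68% in control. Cacng2 held 3.82%, 1.62% and 1.15%, against 8.26% in control. Cnih3 was low throughout (0.46 to 1.20 CPM) and passed at no time, and Cacng6 had 0 to 3 counts per library and was not tested.

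The FPKM of Cacng2 relative to the summed FPKM of Gria1 to Gria4 was 0.126, 0.133 and 0.141 at 1 M, 0.0682, 0.0707 and 0.0693 at 3 M, with 0.0691 and 0.0331 at 6 M, against 0.327, 0.602 and 0.427 in control. The SCI libraries were all lower than the controls. The difference in the log2 ratio was -2.44 (two-sided exact permutation test, p = 0.00606, adjusted p = 0.00758).

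**Figure D3:**
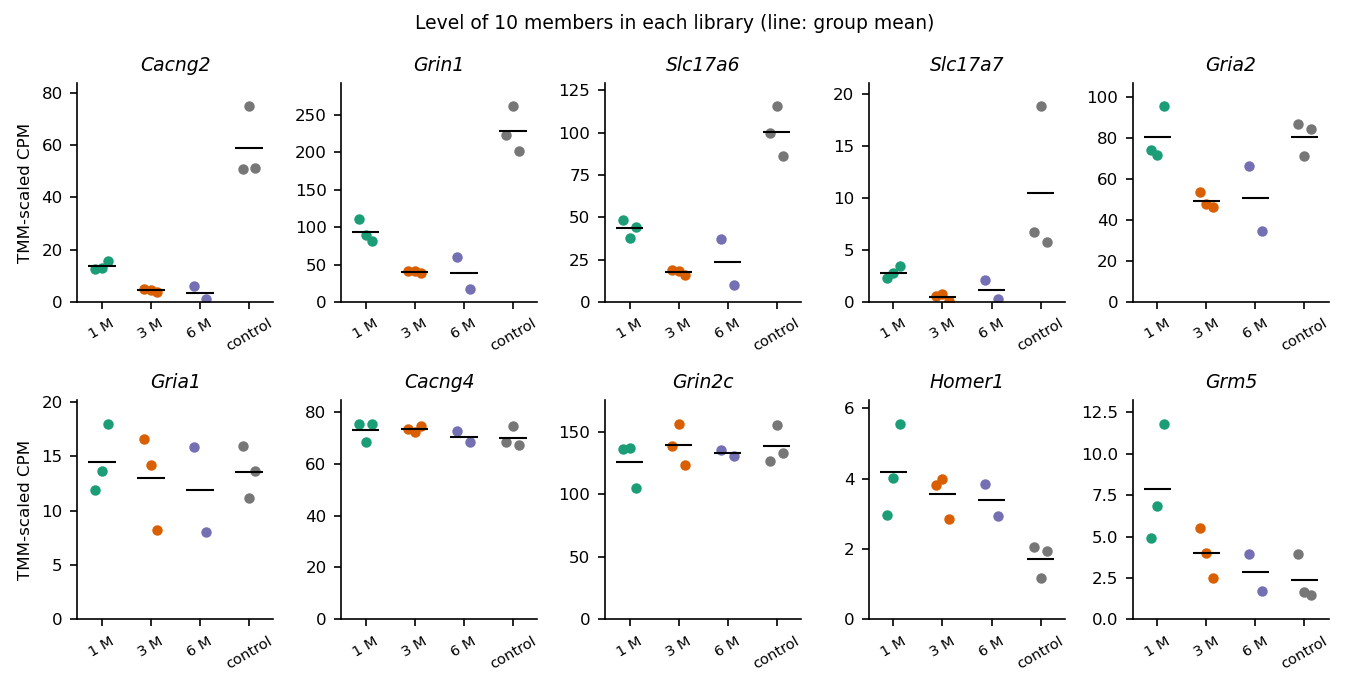
CPM (scaled by TMM) of 10 genes in each library at 1 M, 3 M, 6 M and in control, each on its own linear axis from 0, with lines at the group means. Cacng2, Grin1, Slc17a6 and Slc17a7 lie below control in each SCI library, Gria1, Cacng4 and Grin2c overlap with control, and Homer1 lies above it.

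The promoters of Cacng2, one of the members furthest below control, and of Homer1, the member that was higher at all 3 times, are shown as they stand in RefSeq (build GRCr8, the 250 bases before the annotated start, 5′ to 3′ on the gene's strand), with each match to TATAAA on either strand in capitals. The tables hold expression only, and nothing in them measures these sequences. Among the 26 members with a promoter window of 300 bases in RefSeq, Cacng2 and Homer1 were the only 2 that hold TATAAA (7.69%), against 14.2% of 33365 windows of all genes. Slc17a7, the member with the lowest fold change at 3 M, has a window too and does not hold it. A link between the motif and expression was not tested. In Cacng2 it occurs at 2 places (-143 and -98 from the annotated start) and in Homer1 at 1 (-223). The first is Cacng2, chr7:111577758-111578007 on the minus strand, and the other Homer1, chr2:26278762-26279011 on the plus strand. GGGCGG was in 9 of the 26 windows (34.6%), against 33.1% of all, and TGACG in 3 of 26, against 21.2% of all.
Cacng2: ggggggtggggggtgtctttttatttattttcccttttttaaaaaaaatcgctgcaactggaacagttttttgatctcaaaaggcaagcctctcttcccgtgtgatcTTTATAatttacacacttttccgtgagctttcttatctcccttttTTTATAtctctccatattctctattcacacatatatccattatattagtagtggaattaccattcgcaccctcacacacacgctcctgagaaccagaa
Homer1: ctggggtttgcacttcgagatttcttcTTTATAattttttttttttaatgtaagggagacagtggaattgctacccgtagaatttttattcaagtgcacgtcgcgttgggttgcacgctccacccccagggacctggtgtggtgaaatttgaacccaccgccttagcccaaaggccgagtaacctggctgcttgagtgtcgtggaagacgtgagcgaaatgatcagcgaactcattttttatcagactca

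NMDA receptors pair the Grin1 product, GluN1, with subunits of the Grin2 or Grin3 genes. Grin1 had the highest FPKM of the family in control and the lowest fold change. It had 111, 89.2 and 81.7 CPM at 1 M, 41.2, 41.1 and 39.3 CPM at 3 M and 60.4 and 17.2 CPM at 6 M, against 223, 261 and 201 CPM in control. Each SCI library was below each control library, and at 6 M replicate 2 was far below replicate 1. The edgeR log2 fold change was -1.28 ± 0.34 at 1 M (adjusted p = 0.00826), -2.49 ± 0.35 at 3 M (0.000169) and -2.56 ± 0.41 at 6 M (0.000575), and with 1 batch per group (control replicate 3 and 1 M replicate 3 left out) the call at 1 M was lost.

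Grin2c, singled out after its values were seen, encodes the GluN2C subunit, which in rodents is known from cerebellar granule cells and astrocytes. Its level was 136, 137 and 105 CPM at 1 M, 138, 156 and 124 CPM at 3 M and 136 and 131 CPM at 6 M, against 126, 156 and 133 CPM in control. The SCI and control libraries overlapped at each time. Its log2 fold change was -0.13 ± 0.13 at 1 M (adjusted p = 0.398), 0.01 ± 0.13 at 3 M (0.946) and -0.05 ± 0.14 at 6 M (0.773) (edgeR). Its share in the summed FPKM of the 7 NMDA subunits was 45.3%, 48.1% and 44.2% at 1 M, 64.0%, 67.1% and 62.8% at 3 M, with 57.4% and 77.8% at 6 M, against 25.8%, 29.8% and 31.9% in control. That of Grin1 was 43.0%, 38.4% and 40.0% at 1 M, 23.1%, 21.4% and 24.2% at 3 M, with 31.6% and 12.8% at 6 M, against 59.7%, 57.1% and 54.4% in control. The order of the 2 genes by FPKM was thus reversed in all 8 SCI libraries.

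Grin2d, the GluN2D subunit known from interneurons, and Grin3b, a glycine-binding subunit known from motor neurons, were lower at each time, with log2 fold changes of -0.77 and -1.16 at 1 M, -1.50 and -1.24 at 3 M, with -1.65 and -1.59 at 6 M. The call of Grin2d at 1 M was lost in limma on FPKM (-0.39 and -0.51). Grin3a, the other glycine-binding subunit, had the highest fold change of the family. It met the FPKM limit for testing only through 1 M replicate 3 (1.41) and 3 M replicate 1 (1.09), so the filter favored a higher value. Its level was 2.49, 4.21 and 6.95 CPM at 1 M, 4.82, 3.47 and 2.35 CPM at 3 M and 4.47 and 2.88 CPM at 6 M, against 3.83, 2.49 and 2.28 CPM in control, with overlap at each time. On the log2 scale the fold change was 0.66 ± 0.42 at 1 M (adjusted p = 0.201), 0.32 ± 0.42 at 3 M (0.529) and 0.36 ± 0.46 at 6 M (0.530) in edgeR, and without 1 M replicate 1 it passed at 1 M (0.97, adjusted p = 0.0499). Grin2a and Grin2b, the main partners of Grin1 in the forebrain, were below the FPKM limit and were not tested. Grin2b had 0.728, 1.51 and 3.03 CPM at 1 M, 1.19, 1.36 and 1.17 CPM at 3 M and 1.42 and 1.06 CPM at 6 M, against 3.92, 9.72 and 5.01 CPM in control and Grin2a 0.364, 0.517 and 1.84 CPM at 1 M, 0.631, 0.369 and 0.294 CPM at 3 M and 0.310 and 0.232 CPM at 6 M, against 1.49, 1.66 and 1.42 CPM in control. The SCI libraries of Grin2b were all below control, and those of Grin2a overlapped with it at 1 M.

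The FPKM of Grin1 relative to the sum of Gria1 to Gria4 was 0.687, 0.580 and 0.479 at 1 M, 0.362, 0.410 and 0.469 at 3 M, with 0.598 and 0.373 at 6 M, against 1.19, 2.03 and 1.39 in control. The SCI libraries were all below the controls, by -1.63 in log2 ratio (two-sided exact permutation test, p = 0.00606, adjusted p = 0.00758). From CPM the difference was -1.22.

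Kainate receptors are formed from Grik1 to Grik3, with Grik4 and Grik5 as partners that raise the affinity for the ligand. All 4 tested genes were lower at 3 M, where 31.4% of all genes were. Grik5, which had the highest FPKM in control, had 73.2, 65.2 and 53.8 CPM at 1 M, 61.1, 50.9 and 67.8 CPM at 3 M and 55.05 and 47.5 CPM at 6 M, against 109, 159 and 116 CPM in control. Its SCI libraries did not reach the control range, and the 3 times overlapped with each other. On the log2 scale the fold change was -0.995 ± 0.17 at 1 M (adjusted p = 0.000777), -1.09 ± 0.17 at 3 M (0.000307) and -1.32 ± 0.20 at 6 M (0.000364) in edgeR.

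Grik1 fell furthest at 3 M. Its level was 6.05, 4.69 and 5.97 CPM at 1 M, 3.12, 2.69 and 3.15 CPM at 3 M and 5.36 and 3.08 CPM at 6 M, against 9.89, 11.9 and 12.1 CPM in control, with each SCI library below control. The edgeR log2 fold change was -1.02 ± 0.21 at 1 M (adjusted p = 0.00236), -1.92 ± 0.22 at 3 M (4.87e-05) and -1.43 ± 0.25 at 6 M (0.000852), and at 1 M the call was lost in limma on log2(FPKM + 0.1) (-0.48, adjusted p = 0.0822). Grik4 was the member with the smallest error, at -0.81 ± 0.07 at 1 M, -1.18 ± 0.08 at 3 M and -1.07 ± 0.09 at 6 M.

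Grik2, the subunit of most kainate receptors in the brain, had the highest fold change of the class at 3 M. It had 19.9, 18.3 and 25.1 CPM at 1 M, 17.9, 16.9 and 14.9 CPM at 3 M and 22.9 and 15.3 CPM at 6 M, against 25.6, 23.8 and 27.8 CPM in control. The libraries at 1 M overlapped with control, and those at 3 M and 6 M lay below it. As a log2 fold change this was -0.29 ± 0.17 at 1 M (adjusted p = 0.165), -0.64 ± 0.17 at 3 M (0.00811) and -0.44 ± 0.19 at 6 M (0.0755) (edgeR). As for Gria2, the FPKM did not show the fall, with 3.26 ± 0.34 at 3 M against 3.11 ± 0.67 in control (SD, n = 3 each) and a log2 fold change of 0.06 in limma on log2(FPKM + 1), and the call was also lost with total counts. Grik3 was not tested. It had 1.33, 2.99 and 3.80 CPM at 1 M, 2.19, 1.22 and 1.17 CPM at 3 M and 1.42 and 0.530 CPM at 6 M, against 1.77, 0.830 and 1.48 CPM in control, with overlap at each time.

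The delta receptors bind cerebellins in the cleft and organize synapses without opening to glutamate. Grid1 had 22.3, 22.00 and 25.8 CPM at 1 M, 17.7, 15.4 and 14.6 CPM at 3 M and 18.8 and 14.7 CPM at 6 M, against 37.5, 24.3 and 29.00 CPM in control. At 1 M it overlapped with control and later it lay below. Its edgeR log2 fold change was -0.38 ± 0.17 at 1 M (adjusted p = 0.0736), -0.93 ± 0.17 at 3 M (0.000802) and -0.86 ± 0.19 at 6 M (0.00351). In limma on FPKM the call at 6 M was lost (-0.46 and -0.53), and without control replicate 2 the value at 1 M passed (-0.50, adjusted p = 0.0240).

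Of the metabotropic receptors, Grm5 (group I) raises calcium inside the cell, while Grm2 and Grm3 (group II) and Grm4, Grm6, Grm7 and Grm8 (group III) lower cyclic AMP, many of them on presynaptic endings. Grm3, Grm4 and Grm8 were lower at all times. Grm3, which astrocytes express too and which had the highest FPKM in control, had 17.1, 19.3 and 26.9 CPM at 1 M, 18.7, 18.3 and 15.2 CPM at 3 M and 21.7 and 14.04 CPM at 6 M, against 37.4, 34.6 and 43.3 CPM in control. Each SCI library was below control. The edgeR log2 fold change was -0.87 ± 0.20 at 1 M (adjusted p = 0.00444), -1.15 ± 0.20 at 3 M (0.000746) and -1.11 ± 0.23 at 6 M (0.00262), and at 1 M the call was lost in limma on FPKM (-0.36 and -0.42).

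Grm4, a presynaptic group III receptor, fell furthest. It had 12.01, 11.04 and 7.85 CPM at 1 M, 4.67, 4.53 and 4.41 CPM at 3 M and 6.86 and 1.56 CPM at 6 M, against 30.4, 23.1 and 26.04 CPM in control, with no overlap at any time. Its log2 fold change was -1.36 ± 0.37 at 1 M (adjusted p = 0.0106), -2.55 ± 0.40 at 3 M (0.000326) and -2.69 ± 0.47 at 6 M (0.000935) by edgeR. The call at 1 M was lost in limma on log2(FPKM + 0.1) (-1.06, adjusted p = 0.0836) and with 1 batch per group (-1.22, 0.0791). Grm8, which met the FPKM limit for testing through control replicate 1 alone (1.26), reached -2.48 at 3 M. Its call at 1 M, near the threshold, was lost without control replicate 1 or 2 or any replicate at 1 M or 3 M (log2 fold change -1.30 to -0.90), and also with total counts, upper quartile, no filter, filterByExpr, 1 batch per group (-1.41 to -0.87) and limma on FPKM (-0.18 and -0.34). Grm7, the most widespread group III receptor of the brain, was lower at 3 M (-1.20, adjusted p = 0.0173) and 6 M (-1.15, 0.0419). These calls were lost without control replicate 1 (-0.82, 0.0801 at 3 M and -0.79, 0.128 at 6 M), without 3 M replicate 3 (-1.14, 0.0518 at 3 M) or without 6 M replicate 2 (-0.56, 0.251 at 6 M), and at 6 M also without 1 M replicate 1 or 2 or any 3 M replicate (-1.15, 0.0503 to 0.0572). Limma on FPKM called it at neither time (-0.26 and -0.34 at 3 M, -0.37 and -0.62 at 6 M), and total counts, upper quartile, no filter, a fit of the 2 groups alone and 1 batch per group lost it at 6 M (-1.31 to -0.93).

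Grm5 was called higher at 1 M. It had 4.89, 6.87 and 11.8 CPM at 1 M, 5.53, 4.02 and 2.52 CPM at 3 M and 3.94 and 1.72 CPM at 6 M, against 3.92, 1.66 and 1.48 CPM in control. At 1 M all 3 libraries were above the controls, and at 3 M and 6 M they overlapped. Its FPKM was over 1 at 1 M (1.16 to 2.60) and in 3 M replicates 1 and 2, but in no control (0.20 to 0.71). It was thus tested only through SCI libraries. The edgeR log2 fold change was 1.75 ± 0.50 at 1 M (adjusted p = 0.0130), 0.80 ± 0.51 at 3 M (0.196) and 0.27 ± 0.57 at 6 M (0.711). Without control replicate 3 the value at 1 M was 1.47 (adjusted p = 0.0592), and with 1 batch per group it was 1.04 (0.160), so the call rests on these libraries. Grm2 had 13 to 102 counts per library and Grm6, the receptor of retinal bipolar cells, 3 to 18, and neither was tested.

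The scaffold genes moved in different directions. Dlg4 encodes PSD-95, the main scaffold beneath AMPA and NMDA receptors, and had 133, 142 and 145 CPM at 1 M, 124, 123 and 121 CPM at 3 M and 123 and 97.1 CPM at 6 M, against 234, 239 and 214 CPM in control. Every SCI library was below every control library. As a log2 fold change this was -0.71 ± 0.10 at 1 M (adjusted p = 0.000198), -0.90 ± 0.10 at 3 M (3.36e-05) and -1.06 ± 0.11 at 6 M (6.14e-05) in edgeR.

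Shank1, which links PSD-95 complexes to Homer and the cytoskeleton, had 64.9, 73.5 and 61.3 CPM at 1 M, 37.9, 31.4 and 33.3 CPM at 3 M and 40.04 and 13.8 CPM at 6 M, against 111, 70.2 and 80.97 CPM in control. At 1 M its libraries overlapped with control, and at 3 M and 6 M they were below. Its log2 fold change was -0.39 ± 0.30 at 1 M (adjusted p = 0.289), -1.35 ± 0.31 at 3 M (0.00333) and -1.71 ± 0.36 at 6 M (0.00281) (edgeR).

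Homer1, which ties Grm5 to calcium stores, had 2.95, 4.02 and 5.56 CPM at 1 M, 3.82, 3.98 and 2.85 CPM at 3 M and 3.85 and 2.95 CPM at 6 M, against 2.05, 1.19 and 1.94 CPM in control. All 8 SCI libraries were above all control libraries, with 68 to 146 counts each, against 10 to 34 in control. Its FPKM was over 1 in SCI libraries alone (1.01 to 1.84, against 0.18 to 0.55 in control), so it was tested only because it was high there. With no filter it was still called higher at each time. Its log2 fold change was 1.23 ± 0.30 at 1 M (adjusted p = 0.00590), 1.01 ± 0.30 at 3 M (0.0144) and 0.94 ± 0.33 at 6 M (0.0335) in edgeR. At 6 M the call was lost without control replicate 2 (0.76, adjusted p = 0.0949), control replicate 3 (1.04, 0.0598), 6 M replicate 1 (0.74, 0.165) or 6 M replicate 2 (1.11, 0.0529), and in a fit of the 2 groups alone (0.94, 0.0548). Short and long forms of Homer1 are not separated in gene-level counts.

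Between the times after SCI, edgeR called only a minority of the members at the adjusted threshold. At 3 M 32 of the 34 had a lower fitted level than at 1 M, and at 6 M 33 had, with a median log2 fold change of -0.71 and -0.73, where the median of all genes was -0.01 and -0.0025. At 3 M against 1 M, 6 members were called lower (Cacng2, Gria3, Grik1, Grik4, Grin2d and Slc17a6) and 0 higher, while 3.30% of all genes were lower and 5.02% higher. At 6 M against 1 M, 5 were called lower (Cacng2, Cacng7, Gria3, Grin2d and Shank1) and 0 higher, while 3.95% of all genes were lower and 6.12% higher. At an unadjusted p under 0.05, 22 members were lower and 0 higher at 3 M against 1 M, where 12.2% of all genes were lower and 11.7% higher. At 6 M against 1 M, 20 were lower and 0 higher, where 12.5% and 13.5% of all genes were. DESeq2 called 19 lower and 0 higher at 3 M against 1 M (8.81% and 7.59% of all genes) and 14 lower and 0 higher at 6 M against 1 M (9.25% and 8.00%). Cacng2 showed the largest called difference, -1.62 ± 0.39 at 3 M against 1 M (adjusted p = 0.0353) and -1.97 ± 0.47 at 6 M against 1 M (adjusted p = 0.0263, edgeR).

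The comparison of 3 M with 1 M is the only one that can be made within a batch. There, with 3 libraries at 3 M and 2 at 1 M, 28 of 34 members were lower at 3 M and the median log2 fold change was -0.69, against -0.001 for all genes. edgeR called 0 members at the adjusted threshold, which 0.747% of all genes passed as lower and 1.65% as higher. At an unadjusted p under 0.05 it had 20 lower and 0 higher (10.6% and 9.85% of all genes), and DESeq2 called 13 lower and 0 higher (5.68% and 5.82%). The number of edgeR calls between times also moved widely when 1 library was left out. At 3 M against 1 M, it was 0 without 1 M replicate 1 or 2 or without any of the 3 M replicates, 1 without 1 M replicate 3, 2 without control replicate 3, and 18 without either 6 M replicate. At 6 M against 1 M, it was 0 without 1 M replicate 2 or 6 M replicate 2, 1 to 3 without control replicate 3, 1 M replicate 1, 1 M replicate 3 or any 3 M replicate, 8 without control replicate 2 and 18 without 6 M replicate 1.

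Between 6 M and 3 M edgeR called 0 members, with 0 at an unadjusted p under 0.05 and 0 by DESeq2, and 18 of 34 were lower with a median log2 fold change of -0.06. Over all genes, 0.0135% were lower and 0.0202% higher, which is 2 and 3 genes, at an unadjusted p 3.71% and 3.30%, and by DESeq2 0.594% and 0.304%. A difference between 3 M and 6 M was thus not detectable with these libraries.

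Other genes of the excitatory synapse were counted from lists in the same fits. In the list of further receptor partners and trafficking proteins, 15 of 24 tested genes were lower at 1 M, 17 at 3 M, 17 at 6 M, and 1 was higher at each time. Of all genes, 31.5%, 31.4% and 27.2% were lower and 25.5%, 29.7% and 26.8% higher. At 3 M the lowest in the list were Cbln2 (-2.66), a cerebellin that bridges presynaptic neurexins and delta receptors, and Olfm3 (-2.48), a secreted protein that binds AMPA receptors. The higher one was Dnajc13 (0.69), an endosomal protein, and the next among the calls was Abhd6 (-0.26), a lipase that binds AMPA subunits.

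Other scaffolds and kinases of the postsynaptic density had 5 of 18 lower and 4 higher at 1 M, 5 lower and 5 higher at 3 M, and 4 lower and 2 higher at 6 M. Of all genes, 31.5% were lower and 25.5% higher at 1 M, and 31.4% and 29.7% at 3 M, so the shares at these times lie near the background. At 6 M 27.2% of all genes were lower and 26.8% higher. Their median log2 fold change at 3 M was 0.07. The lowest calls were Camk2b (-2.38), a calcium-activated kinase subunit, and Dlgap3 (-2.11), which joins PSD-95 to Shank, and Iqsec2 (0.89), a regulator of small GTPases at the synapse, was among the highest.

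Genes of glutamate uptake and recycling were called lower in 6 of 14 cases at 1 M, 6 at 3 M, 5 at 6 M, and higher in 4, 3 and 3. Of all genes, 31.5%, 31.4% and 27.2% were lower and 25.5%, 29.7% and 26.8% higher. At 3 M the extremes were Gls2 (-2.25), a glutaminase, and Slc1a6 (-1.76), the transporter EAAT4, against Slc38a1 (1.79), a glutamine carrier, and Slc7a11 (1.07), the cystine-glutamate exchanger. The main glial transporters Slc1a2 (-0.13) and Slc1a3 (0.10) passed in neither direction at 3 M. They were picked after their values were seen.

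Synaptic adhesion and activity-regulated genes were lower in 4 of 12 cases at 1 M, 7 at 3 M, 7 at 6 M, and higher in 2 each time. The lower share at 1 M lies near that of all genes (31.5%), while 31.4% of all genes were lower at 3 M and 27.2% at 6 M. Higher were 25.5%, 29.7% and 26.8% of all genes. Arc (-2.23), an activity-regulated gene that removes AMPA receptors from the surface, and Nrgn (-2.08), a calmodulin-binding protein of spines, were lowest at 3 M, and the transcription factor genes Fos (1.39) and Egr1 (0.60) were highest.

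The inhibitory counterpart was measured in the same way. Of 18 tested genes for GABA and glycine receptors, synthesis and transport, 9 were lower at 1 M, 14 at 3 M, 11 at 6 M, and 2 were higher at each time. Among all genes, 31.5%, 31.4% and 27.2% were lower and 25.5%, 29.7% and 26.8% higher. The median log2 fold change was -0.72 at 1 M, -1.70 at 3 M and -1.49 at 6 M. At 3 M the lowest were Slc32a1 (-2.82), the vesicular transporter of GABA and glycine, and Slc6a5 (-2.81), the glycine transporter of inhibitory neurons, and the highest Gabrg1 (1.38) and Gabra2 (1.26), both GABA-A receptor subunits. The FPKM ratio of Slc17a6 to Slc32a1 was 0.456, 0.561 and 0.616 at 1 M, 0.615, 0.590 and 0.495 at 3 M, with 0.510 and 0.520 at 6 M, against 0.319, 0.281 and 0.296 in control, with no overlap. The difference in log2 ratio was 0.86 (two-sided exact permutation test, p = 0.00606, adjusted p = 0.00758), and from CPM it was 0.36 (adjusted p = 0.0273 in the exact test). The ratio of Slc17a6 to Slc17a7 averaged 11.2 at 1 M, 24.1 at 3 M and 14.7 at 6 M, against 6.90 in control, and its libraries overlapped. Slc17a7 lay at the lowest FPKM value (0.1) in 3 M replicate 3 and 6 M replicate 2. The ratios of these libraries (32.5 and 18.6) were thus set by that value. The difference of 1.32 in log2 (exact p = 0.0182) was not past the threshold from CPM (1.31, adjusted p = 0.175 in the exact test) or without control replicate 2 (0.82, adjusted p = 0.111 in the exact test).

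**Figure D4:**
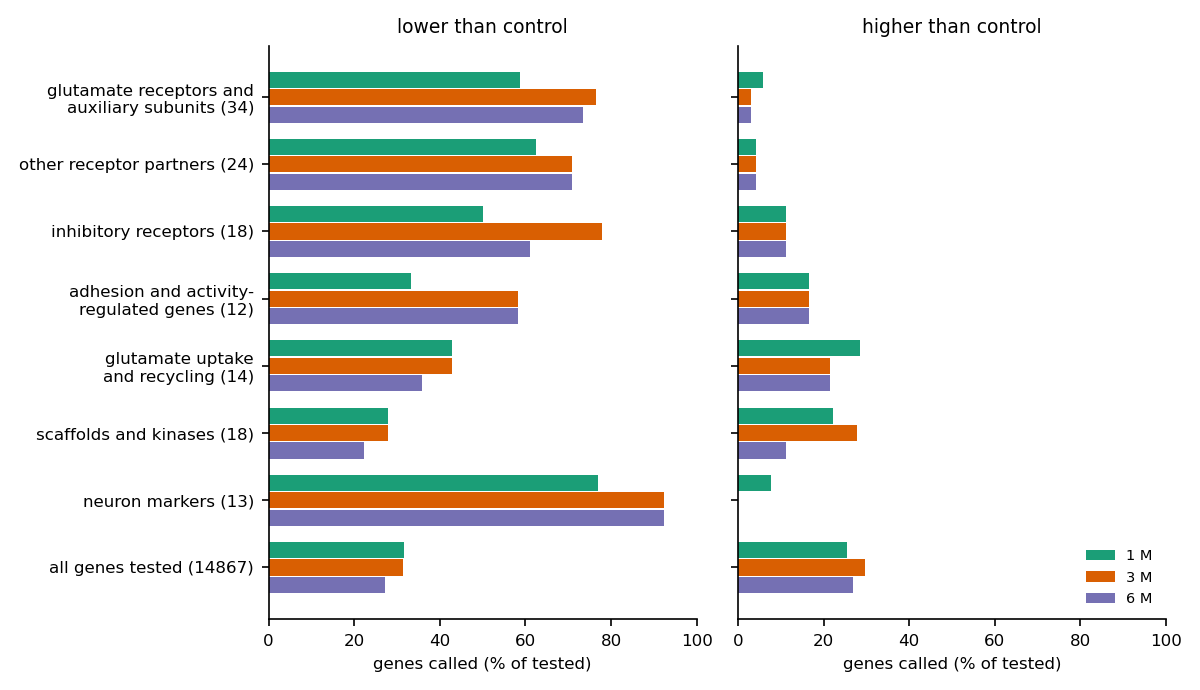
Percent of tested genes called lower (left) and higher (right) than control by edgeR at each time, for the glutamate receptor group, 5 lists of other synaptic genes, 13 neuron markers and all 14867 genes, with the number tested in parentheses. The receptor group, its partners, the inhibitory genes and the neuron markers have larger lower shares than all genes at each time, and the scaffolds and kinases do not.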

How the data were processed

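The 11 RNA-seq libraries were poly-A selected, sequenced in pairs and each made from 3 pooled rats. The authors aligned the reads to Rnor6 with TopHat2 2.1.0. The deposited counts are raw reads per gene from HTSeq-count. Its version and use of strand are not stated in the sources used here, so overlapping and antisense genes may share reads. The deposited FPKM were estimated with Cufflinks 2.2.1, and the authors set values below 0.1 to 0.1, which 41.8% of the values equal. The 6 M library dropped by the authors as an outlier is not analysed here.

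Counts of genes that passed FPKM 1 in any library were tested with edgeR 4.0.16 in R 4.3.3 (TMM scaling, robust quasi-likelihood test, 1 model for all 11 libraries with terms for condition alone), as the study used DESeq on the same filter. Benjamini-Hochberg adjustment covered 14867 genes, and the p-values reflect how pools of rats vary. Standard errors are the log2 fold change over the root of the F statistic. CPM are counts per 1000000 of the TMM-scaled library, and 3 counts, the limit that a count of 0 allows, are 0.171 to 0.356 CPM in control and 0.0607 to 0.133 CPM in SCI libraries, for counting error only. Ratios within a library were compared by exact permutation. Of 6 planned ratios, that of Grin2a to Grin2b was left out, since Grin2a lay at the lowest FPKM in 6 libraries. The fits were tested on simulated counts.

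The members, the gene lists and the tests were chosen with earlier results of these data known. In full are given, for each class, the gene with the highest FPKM in control, those with the lowest and highest fold change at 3 M, and each gene that was higher at any time, and of the lists the 2 lowest and 2 highest calls at 3 M. Some genes that this rule or the group covers are not reported here by name, though the counts and medians include them. Alternatives were DESeq2 size factors, total counts or upper quartiles, the Wald test of DESeq2 1.42.0, limma 3.58.1 on log2(FPKM + 1) and log2(FPKM + 0.1), no filter, filterByExpr, fits restricted to the compared groups, a block for replicate number, 1 batch per group, removal of a trend with gene length, the counts of 1 M replicate 1 divided by 2 (its total exceeds its number of read pairs), the thresholds of the study (adjusted p under 0.01 and fold over 2), and each library left out. Libraries with the same replicate number were not treated as paired in the main fit, and any 2 libraries of a group differed beyond counting noise (chi-square per gene 7.87 to 59.4). After seeing the data, DESeq2 was added for 3 M against 1 M within a batch.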

Additional observations from a re-analysis of the deposited data

Results flagged for a closer look

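For 6 genes the difference from control itself differed between 3 M and 1 M, as tested by the contrast of the times in edgeR. The log2 fold change of 3 M over 1 M was -1.62 for Cacng2 (adjusted p = 0.0353), -1.01 for Gria3 (0.0418), -0.90 for Grik1 (0.0326), -0.37 for Grik4 (0.0166), -0.72 for Grin2d (0.0401) and -1.31 for Slc17a6 (0.0445). For 5 genes the same held between 6 M and 1 M, with -1.97 for Cacng2 (adjusted p = 0.0263), -0.50 for Cacng7 (0.0294), -1.12 for Gria3 (0.0410), -0.88 for Grin2d (0.0267) and -1.31 for Shank1 (0.0420). Cacng2, Gria3 and Grin2d were called in both comparisons, which share the 1 M libraries. In these 3 genes, every library at 3 M and at 6 M was below every library at 1 M. Of all genes, 3.30% were lower and 5.02% higher at 3 M against 1 M, and 3.95% and 6.12% at 6 M against 1 M. Within a batch, edgeR called 0 members at 3 M against 1 M. In the fit of all batches, no member was called at 3 M against 1 M once any 3 M replicate was left out. At 6 M against 1 M, no member was called without 1 M replicate 2.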

How the results depend on the processing

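Of the calls against control, 24 of 27 at 3 M, 21 of 26 at 6 M and 9 of 22 at 1 M held at an adjusted p under 0.05 in every other fit. The stricter thresholds (adjusted p under 0.01 and fold over 2) are not part of these counts. The number of members lower at 3 M and 6 M stayed within 1.5 times. At 1 M it was 12 and 10 with limma on log2(FPKM + 1) and log2(FPKM + 0.1), 13 with 1 batch per group and 7 at the stricter thresholds. Without single replicates it was 15 to 21. The 2 limma fits at 1 M raised the median gene by 0.28 and 0.36. The number higher at 1 M was 5 and 5 with limma, 1 with 1 batch per group, 1 at the stricter thresholds and 1 to 3 without single replicates. At 3 M it was 2 with total counts, 2 with upper quartiles, 2 and 3 with limma and 0 at the stricter thresholds. At 6 M it was 2 with total counts, 2 and 2 with limma, 0 with only the groups compared, 0 at the stricter thresholds and 0 to 1 without single replicates.

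The number lower at 3 M against 1 M was 3 with total counts, 19 with DESeq2, 1 and 0 with limma, 20 with only the groups compared, 0 with 1 batch per group, 15 with the length trend removed, 0 at the stricter thresholds and 0 to 18 without single replicates. At 6 M against 1 M it was 3 with total counts, 14 with DESeq2, 3 and 2 with limma, 0 with only the groups compared, 1 with 1 batch per group, 0 at the stricter thresholds and 0 to 18 without single replicates. With the replicate number as a block, the number lower was 19 at 1 M, 26 at 3 M, 25 at 6 M, 1 at 3 M against 1 M and 4 at 6 M against 1 M. Deviations from the group mean correlated from -0.466 to 0.336 between same-numbered libraries of different groups, and from -0.46 to 0.498 between the others. With 2 or 3 libraries per group these deviations depend on each other, so they cannot decide whether the numbers mark pairs.

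With limma the fold changes of Gria2 at 1 M were 0.63 and 0.72, those at 3 M 0.12 and 0.14, and those of Grik2 at 3 M 0.0616 and 0.0828, opposite in sign to the counts. The log2 ratio of Slc17a6 to Slc17a7 missed the threshold from CPM (1.31) and without control replicate 2 (0.82, range 0.82 to 1.61 without single replicates). The cause of these changes was not tested. Few reads stand behind some values: Homer1 had 10 to 34 counts and Grm5 14 to 42 per control library, and Slc17a7 2 to 21 per 3 M library.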
